A study of Homo sapiens with 30 samples.

Results

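The 6 libraries described here are 4C-seq profiles of unedited (WT) K562 cells, out of 30 libraries in the series. They were chosen by their titles alone: every library of the WT genotype, with 2 from the CTCF site called S4, 2 from the CTCF site called S2 and 2 from the NOTCH1 promoter. K562 is a human chronic myelogenous leukaemia line, and no cell was edited or treated in any of these groups. The other 24 libraries come from mutated cells and are not used here. In 4C-seq, chromatin is cross-linked, cut and ligated, and the fragments joined to 1 chosen fragment, the viewpoint, are amplified and sequenced, so that reads at a fragment end reflect contact with the viewpoint. Per the labels' protocols, cells were fixed in 2% formaldehyde for 10 min, the first cut was made with DpnII in 3 rounds, and 200 ng of template entered a first PCR of 16 cycles. The question addressed is how the surroundings of NOTCH1 are folded before any site is mutated, seen from 3 places at once.

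NOTCH1 encodes a membrane receptor that is cleaved when a neighbouring cell presents its ligand, after which its intracellular part enters the nucleus and acts on transcription. CTCF is a DNA-binding protein that halts cohesin as it extrudes a chromatin loop. A pair of bound CTCF sites can therefore become the anchors of a loop, and the chromatin between them forms a contact domain in which promoters and enhancers meet more often than across its borders.

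The promoter viewpoint lay between the other two on chromosome 9. In hg19 coordinates, the 5-kb window with the most reads was 139521246 to 139526245 for S4, 139383372 to 139388371 for S2 and 139440768 to 139445767 for the promoter. S4 is therefore 80.5 kb telomeric of the promoter, S2 is 57.4 kb centromeric of it, and S4 and S2 are 138 kb apart. In the RefSeq gene order (GRCh38.p14, used for names and neighbours only), the protein-coding genes next to NOTCH1 on the telomeric side are EGFL7, AGPAT2 and DIPK1B. On the centromeric side they are SEC16A, INPP5E and PMPCA. EGFL7 encodes a secreted protein of blood vessels, AGPAT2 an acyltransferase of lipid synthesis, SEC16A a protein of the export sites of the endoplasmic reticulum, INPP5E a phosphoinositide phosphatase of cilia and PMPCA a subunit of the mitochondrial processing peptidase.

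The RefSeq promoter of NOTCH1 is shown because it names the viewpoint that S4 and S2 are compared with, and because the cutting sites around it set what 4C can resolve there. It spans chr9:136545999-136546298 of GRCh38.p14 on the minus strand, from 250 bases before to 50 bases after the start of the gene, and is written 5′ to 3′ in gene direction with the letters CCCTC or GAGGG in capitals.
NOTCH1 promoter: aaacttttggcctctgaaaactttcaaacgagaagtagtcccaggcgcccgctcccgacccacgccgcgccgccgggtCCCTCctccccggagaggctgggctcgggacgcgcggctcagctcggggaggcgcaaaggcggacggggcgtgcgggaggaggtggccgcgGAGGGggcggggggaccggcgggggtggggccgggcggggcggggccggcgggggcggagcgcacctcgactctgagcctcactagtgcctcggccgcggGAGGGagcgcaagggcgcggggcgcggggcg
Its 300 bases are 77.0% G or C. The DpnII site GATC is not in this window, nor are the sites of the enzymes used for the second cut, CATG (NlaIII) and GTAC (CviQI). Of 35116 RefSeq promoters of the same length, 41.7% hold GATC, 54.9% hold CATG and 29.8% hold GTAC, so the start of NOTCH1 lies inside a stretch that this digestion leaves whole. The letters CCCTC, after which CTCF is named, occur 3 times on either strand, and 71.2% of the promoters hold them at least once. These matches describe the sequence only.

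Depth, and what the 2 libraries of a viewpoint share, bear on every value below. Chromosome 9 read totals ran from 1437870 to 2326487 per library. Ends within 5 kb of the own viewpoint took 31.4 to 32.1% of them at S4, 59.8 to 60.3% at S2 and 77.3 to 77.8% at the promoter, and were left out. Near-cis reads, those within 500 kb outside that mask, numbered 798736 and 1113164 from S4, 499045 and 653924 from S2, and 212633 and 350347 from the promoter. At near-cis ends the 2 libraries of a viewpoint correlated at 0.994 for S4, 0.992 for S2 and 0.990 for the promoter (Pearson r of log2 reads plus 1 over 3290, 3240 and 3008 ends), while their counts differed by more than sampling noise (chi-square per degree of freedom 6.74, 1.94 and 1.32).

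Ends over 1 Mb from all viewpoints, where coverage is sparse, showed how alike the paired libraries are. Only 0.457 to 0.711% of these ends held a read. Of the far ends covered in either library of a viewpoint, 81.1% were covered in both for S4, 80.0% for S2 and 74.5% for the promoter. For S4 these were 1773 ends, where 9.30 would be shared if the 2 libraries covered ends independently at their own rates. Between libraries of different viewpoints, over the ends listed for both, the same share was 1.41 to 2.12%, whether or not the replicate numbers matched. The labels call the libraries of a condition independent, and which step of the protocol the paired libraries have in common was not tested. SDs and p-values below therefore measure only the spread between 2 such libraries, and they do not describe separate cultures.

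Coverage of the short arm was also read, since K562 is known to have lost part of 9p. The longest run of ends without a read in any of the 6 libraries on 9p was 2.69 Mb long, from 21475832 to 24169065 (hg19), and covered 9552 listed ends in the S4 tables, 9560 in the S2 tables and 8726 in the promoter tables. The next longest, 2.61 Mb from 24169067 to 26783463, began just past 1 covered position that parts it from the first. The run was picked because it held no read, so its count of 0 sets no limit on the covered share there. It is therefore no test of the label of the cell line.

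The 3 profiles differed in how far their contacts reached. Of chromosome 9 reads outside the mask, S4 had the highest share in near-cis, 73.4% in replicate 1 and 73.3% in replicate 2. It was 70.0% in both S2 libraries and 66.7% in both promoter libraries. The masked reads, 31.4 to 32.1% at S4 and 77.3 to 77.8% at the promoter, are not counted, so this order describes only reads outside the mask. S4 therefore exceeded the promoter by 6.67 percentage points and S2 exceeded it by 3.28, and no library of one viewpoint overlapped those of another. In covered ends S4 and S2 stood in the other order, with 40.5 ± 0.212% from S4 and 41.0 ± 0.521% from S2, against 33.6 ± 0.616% from the promoter (SD, n = 2 each). Within the near-cis window the order turned round close to the viewpoint. Contacts within 50 kb made up 28.8 ± 0.170% of near-cis reads from S4 and 34.1 ± 0.0196% from S2, against 44.9 ± 0.0453% from the promoter (SD, n = 2 each). The median contact distance was 114 kb from S4 and 101 kb from S2, against 57.3 kb from the promoter, and it fell on the same fragment end in both libraries of each viewpoint. With a 20-kb mask the medians were 128 kb from S4 and 126 kb from S2, against 77.0 kb from the promoter. The size of the difference between S4 and S2 thus depended on the mask. An exact permutation test over the 15 partings of 6 libraries into pairs gave p = 0.0667 for each of the 17 values per library compared, which is the smallest p it allows and also the adjusted p (Benjamini-Hochberg over the 17), so none could pass 0.05.

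**Figure D1:**
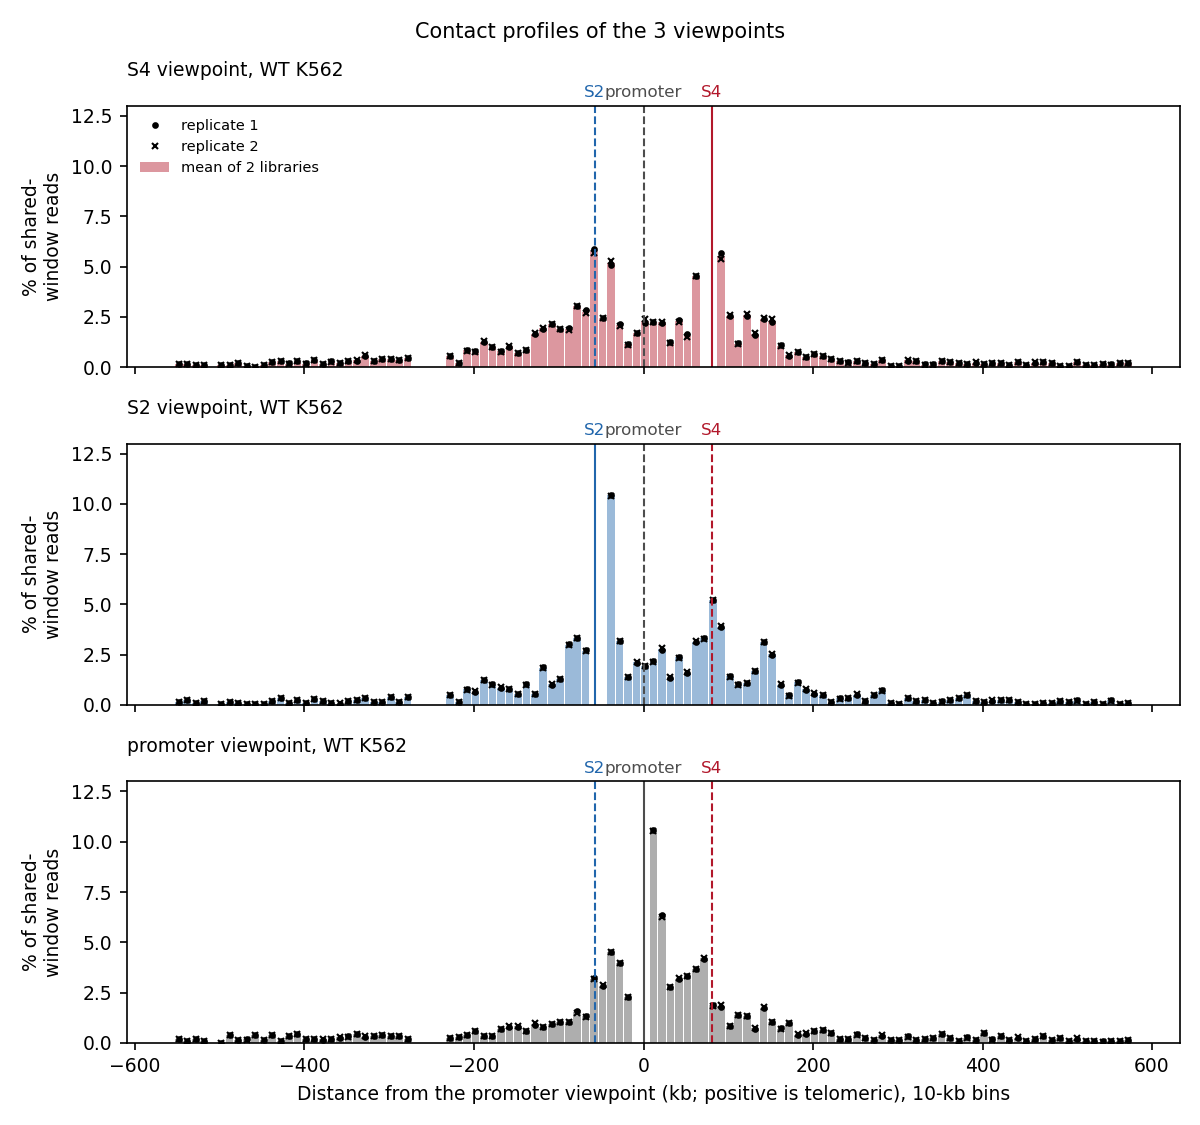
Percent of shared-window reads in each 10-kb bin (y) against distance from the promoter viewpoint in kb (x, positive is telomeric), for S4 (top), S2 (middle) and the promoter (bottom) in WT K562. Bars are means and symbols the 2 libraries, bins within 10 kb of the own viewpoint are not drawn, and away from the own viewpoint the S4 profile peaks at S2 as the S2 profile peaks at S4, while the promoter profile declines past both.

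Contact frequency fell with distance along different slopes. Over bins 15 to 500 kb away, the slope of log10 share on log10 distance was -1.04 in both S4 libraries and -1.22 to -1.23 in the S2 libraries, against -1.20 in both promoter libraries. With all bins to 500 kb, S4 also had the shallower slope on each side alone: -1.11 ± 0.000525 telomeric and -0.932 ± 0.00331 centromeric from S4, -1.26 ± 0.00154 and -1.20 ± 0.00364 from S2, and -1.31 ± 0.00189 and -1.10 ± 0.00646 from the promoter (SD, n = 2 each). The order of the slopes depended on the range of distances. With only bins within 250 kb, S4 was steeper than S2, at -0.788 ± 0.00397 against -0.639 ± 0.00591, and the promoter was steepest at -1.17 ± 0.00751 (SD, n = 2 each). S2 and the promoter differed by -0.02 over the full range in reads at all ends. That difference was 0.53 within 250 kb and 0.09 with covered ends, the number of ends with any read, as the measure. With only the ends typed non-blind, the full-range slopes were -1.45 ± 0.0138 from S2 and -1.20 ± 0.00172 from the promoter (SD, n = 2 each). With a 20-kb mask they were -1.17 from S2 and -1.11 from the promoter. A single power law fitted to all 6 libraries had an exponent of -1.15, and it gives the share expected at a distance in what follows.

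**Figure D2:**
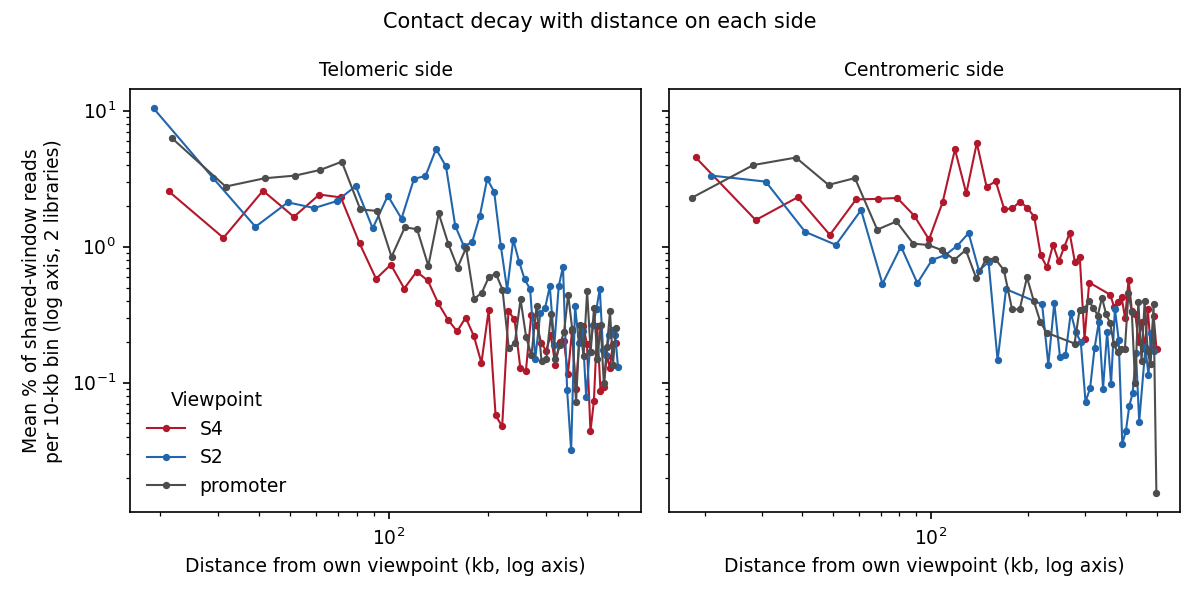
Mean percent of shared-window reads per 10-kb bin (y, log axis) against distance from the own viewpoint in kb (x, log axis), telomeric side on the left and centromeric side on the right, for S4, S2 and the promoter (2 libraries each). On the telomeric side the S2 curve stands above the others around the distance of S4, and on the centromeric side the S4 curve does so around the distance of S2.

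Each CTCF site faced the other. Reads within 500 kb on the telomeric side over those on the centromeric side gave a log2 ratio of -1.22 in both S4 libraries, 1.48 in both S2 libraries and 0.49 in both promoter libraries. In other words, 30.1% of near-cis reads from S4 lay on its telomeric side, 73.6% from S2 and 58.5% from the promoter. S4 thus looked towards the centromere, in the direction of NOTCH1 and S2, and S2 looked towards the telomere, in the direction of NOTCH1 and S4. The promoter leaned towards S4. The difference from the promoter was -1.71 for S4 and 0.98 for S2 (log2), and all pairs of viewpoints kept their order under each alternative tried. Covered ends gave smaller ratios of the same signs, -0.45 ± 0.00824 from S4, 0.44 ± 0.00174 from S2 and 0.10 ± 0.00268 from the promoter (SD, n = 2 each).

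The side preference of the CTCF sites, not corrected for stretches without listed ends, changed with distance and was largest at 150 to 250 kb. Within 5 to 50 kb the log2 ratio was -0.19 from S4 and 1.05 from S2, against 0.53 from the promoter. At 100 to 150 kb, the ring that holds the opposite site, it was -2.62 from S4 and 1.87 from S2, against 0.51 from the promoter. In that ring S4 had 2.93 ± 0.0372% of near-cis reads on the telomeric side and 18.0 ± 0.0511% on the centromeric side, and S2 had 17.3 ± 0.0427% and 4.73 ± 0.00956%. The ring from 150 to 250 kb lies beyond the opposite site, and its ratio was -2.87 from S4 and 2.88 from S2, against 0.49 from the promoter. At 250 to 500 kb the ratios were -1.19 from S4, 0.95 from S2 and -0.07 from the promoter. The preference of each CTCF site thus extended past its partner. The promoter's lean towards the telomere was present up to 250 kb and absent at 250 to 500 kb. No fragment end is listed from 139170001 to 139210000, centromeric of all viewpoints. This gap lies in the 150 to 250 kb ring of S2, the 250 to 500 kb ring of S4 and both of these rings of the promoter. Centromeric shares there rest on fewer ends, and how far this moves the ratios was not tested.

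**Figure D3:**
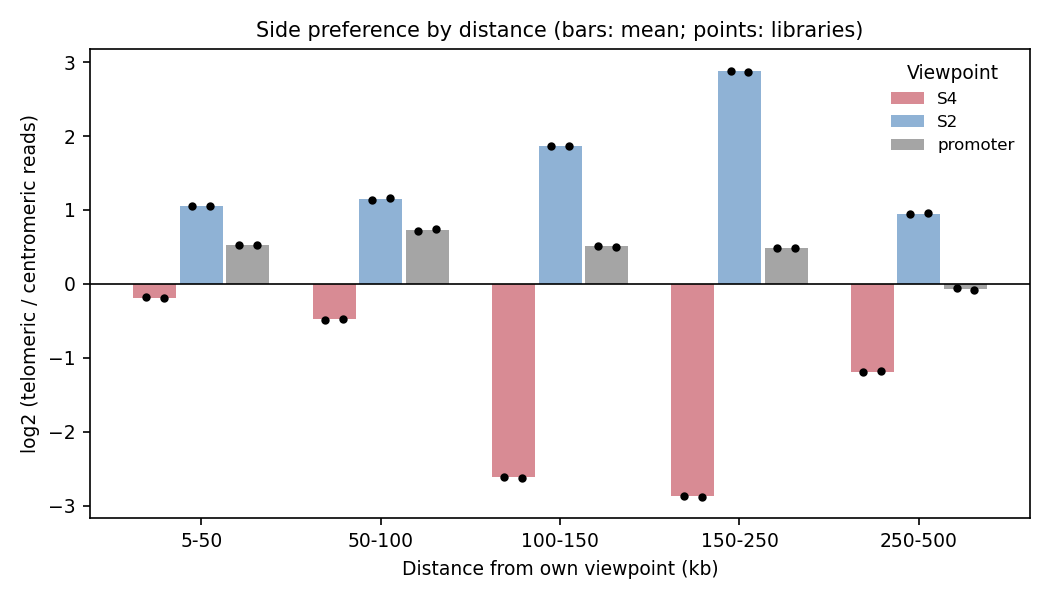
Log2 ratio of telomeric to centromeric reads (y) in rings of distance from the own viewpoint in kb (x), for S4, S2 and the promoter, with bars as means and points as the 2 libraries. S4 bars lie below 0 and S2 bars above 0 in each ring, with the largest sizes at 150 to 250 kb, and promoter bars run from 0.73 to -0.07.

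By reads, the bin with the highest share over 50 kb from S4 was the one that holds S2, and the highest from S2 was the one that holds S4. Values here are percentages of the reads in the shared window, which runs from 138890001 to 140020000 (hg19) in 113 bins of 10 kb, of which 108 hold listed ends. From S4, the bin holding S2 (139380001 to 139390000) took 5.87 and 5.69%, 8.00 times the share expected at that distance and the first of 86 ranked bins. In the S2 profile 5.24 and 5.21% fell in the bin with S4 (139520001 to 139530000), 7.25 times the expected share and the first of 85. Neither replicate pair overlapped the bins ranked next by this measure. The ranks depended on how ends were counted. With covered ends the S2 bin seen from S4 stood at 1.33 times expected, rank 28 of 86, and the S4 bin seen from S2 at 2.28 times, rank 3 of 85. With non-blind ends the S2 bin kept rank 1 from S4 and the S4 bin had rank 4 from S2, and the S4 bin had rank 2 with capped ends or with ends listed for all viewpoints. Ranked next by reads from S4 were the bins starting at 139400001 (5.99 times expected) and 139360001 (4.88 times), both close to S2. From S2 they were the bin starting at 139580001 (6.60 times), which lies telomeric of S4, and the bin starting at 139530001 (5.84 times), next to S4.

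The promoter profile had no peak of that height. Its highest bin relative to distance started at 139510001, just centromeric of S4, with 4.19 and 4.24% of reads and 2.72 times the expected share. It formed the end of a rise towards S4, with 3.33% in the bin starting at 139490001 and 3.67% in the bin starting at 139500001. The bin that holds S4 itself took 1.90 and 1.85% (1.41 times expected), and the bin that holds S2 took 3.21 and 3.17% (1.62 times). The next highest were the bins starting at 139580001 (2.49 times), also among the highest from S2, and 138950001 (2.22 times), of whose ends 27.7% were covered. Among bins with listed ends 15 to 500 kb away, 19 of 93 stood at 2 or more times expectation from S4, as did 16 of 92 from S2 and 7 of 93 from the promoter.

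The CTCF sites, for their part, showed little preference for the promoter itself. The bin holding the promoter viewpoint (139440001 to 139450000) took 2.19 and 2.37% of reads from S4, 1.64 times expected and rank 28 of 86. From S2 it took 1.92% in both libraries, 0.993 times expected and rank 44 of 85. Of the ends in this bin, 63.8% were covered from S4 and 62.1% from S2, against 100% of the S2 bin from S4 and 95.7% of the S4 bin from S2.

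Shares on either side of the opposite site show how each profile passes it. These comparisons were chosen after their values were seen. From the promoter, the 3 bins just before the S4 bin averaged 3.74 ± 0.00164% and the 3 just beyond it 1.35 ± 0.0179%, a 2.76-fold drop where distance alone gives 1.81-fold (SD, n = 2). At S2 the promoter profile dropped 2.90-fold, with 3.78 ± 0.00178% on the near side and 1.30 ± 0.0279% beyond, where distance alone gives 2.39-fold. From S4 the bins before S2 averaged 3.26 ± 0.0210% and those beyond it 2.55 ± 0.0513%, a 1.28-fold drop against 1.40-fold by distance. From S2 the bins before S4 averaged 2.69 ± 0.000319% and those beyond it 2.10 ± 0.00197%, a 1.28-fold drop against 1.40-fold by distance. The promoter profile thus fell more steeply across both sites than distance alone gives, and the profiles of the CTCF sites did not.

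The promoter had a larger share of its contacts between the sites than S4 or S2 did. Outside the masks of all 3 viewpoints, the stretch between S2 and S4 held 35.4 ± 0.0331% of shared-window reads from S4 and 42.8 ± 0.00550% from S2, against 57.6 ± 0.0679% from the promoter (SD, n = 2 each). The order was the same, at lower levels, with a 20-kb mask (23.4% from S4 and 27.7% from S2, against 37.4% from the promoter) and with covered ends (16.4% and 17.1%, against 20.1%). The part between the promoter and S4 held 21.9% from S4 and 17.9% from S2, against 37.8% from the promoter. The part between S2 and the promoter held 13.5% from S4 and 24.9% from S2, against 19.8% from the promoter. Outside the stretch the order was the opposite: the 100 kb telomeric of S4 took 22.0% from S4 and 18.1% from S2, against 11.5% from the promoter, and the 100 kb centromeric of S2 took 19.0% from S4 and 16.7% from S2, against 10.2%. Distances differ too, since the promoter lies inside the stretch and the CTCF sites at its ends. These shares are not corrected for distance, so they do not show more contact from the promoter than its position gives. The tests with a distance term that follow are on single bins, not on this stretch as a whole.

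Reciprocal contacts, the same pair seen from each end, were compared as percentages of near-cis reads within 10 kb of the other viewpoint. S4 to S2 took 8.19 ± 0.0516% and S2 to S4 took 9.77 ± 0.0883% (SD, n = 2 each), 5.52 and 6.60 times the share expected by distance. In covered ends the same contacts were 2.74 ± 0.0777% and 4.57 ± 0.0295%, only 1.28 and 2.15 times expected. The log2 ratio of -0.26 was larger than the spread between libraries but had no settled direction: it was 0.25 with non-blind ends or a 5-kb contact window, 0.05 with a 20-kb window and 0.11 with the ends listed for all viewpoints. S4 to the promoter took 3.97 ± 0.0932% and the promoter to S4 took 4.71 ± 0.0118%, 1.44 and 1.71 times expected, with a log2 ratio of -0.25 that kept its sign under every alternative. S2 to the promoter took 3.19 ± 0.0281% and the promoter to S2 took 5.59 ± 0.00664%, 0.785 and 1.37 times expected. Its log2 ratio of -0.81 was negative under every alternative. It was the largest of the 3 ratios in reads as counted here and the smallest in covered ends, at -0.38, against -0.83 for S4 and the promoter and -0.73 for S4 and S2. With 2 libraries against 2, an exact two-sided test cannot go below p = 0.333, so none was run on a pair alone.

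**Figure D4:**
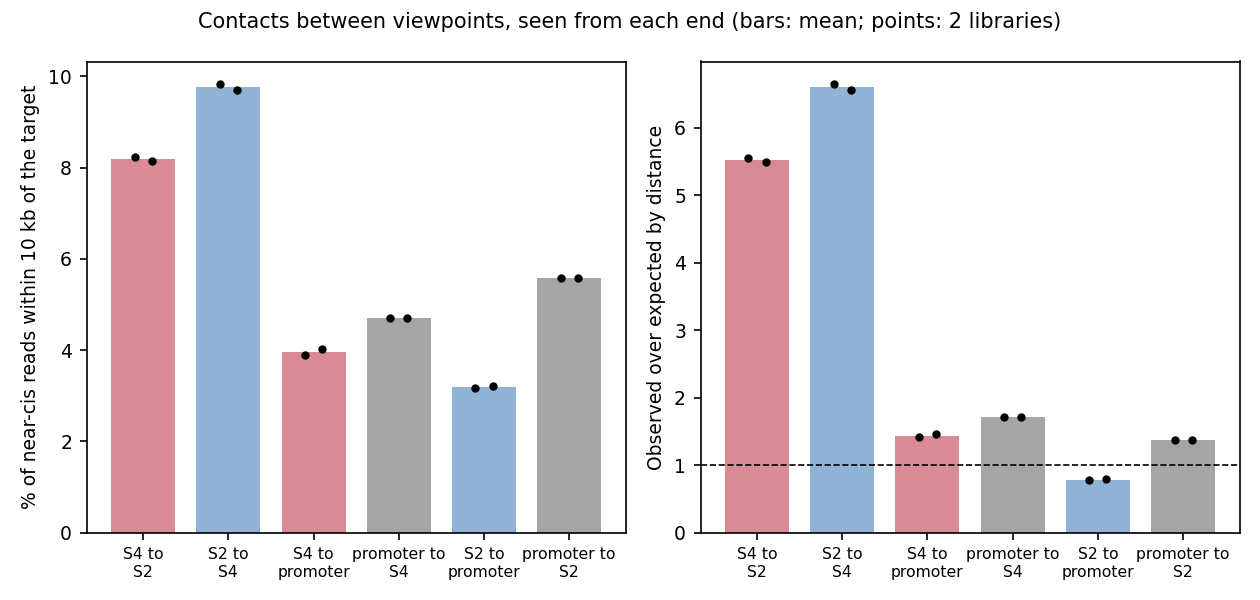
Contacts between viewpoints from each end, as percent of near-cis reads within 10 kb of the target (left) and as observed over expected by distance (right), with bars as means, points as the 2 libraries and a dashed line at 1. Both directions of the S4 and S2 pair exceed 5 times expectation, and the other 4 directions lie between 0.785 and 1.71.

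These contact windows did not rest on 1 fragment end. Reads lay on 51 to 53 of 61 listed ends in the S2 window seen from S4 and on 85 of 88 in the S4 window seen from S2, and the most covered end held 11.5 to 13.2% and 9.19 to 9.61% of the window. Windows at the promoter were thinner, with 42 or 43 of 59 ends covered and 17.9 to 23.7% of reads on the most covered end. Reads at the fragment end most covered in the target viewpoint's own libraries made up 1.11 to 1.29% of the S2 window from S4 and 0.587 to 0.652% of the S4 window from S2. A read assigned to the wrong library could fall at other ends too, so these shares set no limit on such reads. The most covered end of the S2 window from S4, 139388143, lies close to the end most covered in the S2 libraries, 139388148. At the promoter window, the end most covered in the promoter libraries held 5.03 to 5.08% of reads from S4 and 8.34 to 8.39% from S2.

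Bins were then tested across the chromosome with edgeR's quasi-likelihood test on reads, Benjamini-Hochberg adjusted at 0.05. Among 2240 bins, 1770 were called for S4 over promoter (79.0%, 827 higher and 943 lower), 1752 for S2 over promoter (78.2%, 783 higher and 969 lower) and 1743 for S4 over S2 (77.8%, 906 higher and 837 lower). With most bins called, a single call says little, and the size of a difference is more telling. The bin holding S2 took 4.39 and 4.24% of chromosome 9 reads outside the mask from S4, against 2.18 and 2.14% from the promoter (log2 1.00). The bin holding S4 took 3.72 and 3.70% from S2, against 1.29 and 1.25% from the promoter (log2 1.55). The bin holding the promoter took 1.64 and 1.77% from S4, against 1.37 and 1.37% from S2 (log2 0.32). All 3 were past the threshold, and the paired libraries lay apart in each.

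With the expected decay taken into account, the shared window still differed nearly throughout: 91 of 102 bins were called for S4 over promoter (89.2%, 44 higher and 47 lower), 97 for S2 over promoter (95.1%, 49 higher and 48 lower) and 95 for S4 over S2 (93.1%, 52 higher and 43 lower). The named bins with the largest differences showed a pattern in space. For S4 over S2, the 3 highest started at 139310001, 139330001 and 139360001, all centromeric of S2. The first of them stood at 3.60 and 3.76 times the expected share from S4, against 0.337 and 0.341 times from S2 (log2 3.44). The lowest included 139550001, telomeric of S4, at 0.295 and 0.279 times from S4, against 1.78 and 1.72 times from S2 (log2 -2.61). Each CTCF site thus had fewer contacts than expected in those bins on its own outer side and more than expected in those on the outer side of the other. These bins were picked for a large difference between S4 and S2, so their opposite values partly follow from the choice. Not all bins on the outer sides were like them. From S4, the bins starting at 139580001 and 139590001, telomeric of it, stood at 1.30 and 1.47 times expected. Low values were not confined to the outer side. Between S4 and the promoter, the bin starting at 139490001 stood at 0.352 times expected from S4. Between S2 and the promoter, the bin starting at 139420001 stood at 0.449 times from S2, and that at 139400001 at 1.46 times.

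Against the promoter, S4 was highest in the bin starting at 138940001 (0.807 and 0.828 times expected, against 0.0869 and 0.0987 times, log2 3.12), which holds 8 listed ends in the promoter tables and had 31 and 58 promoter reads. The next were 139250001 (3.64 and 3.82 times expected, against 0.712 and 0.644 times) and 139370001 (4.22 and 4.04 times, against 0.827 and 0.799 times), both centromeric of S2. S4 was below the promoter at 139550001, at 0.295 and 0.279 times expected against 1.49 and 1.50 times. S2 exceeded the promoter most in the bin starting at 139810001 (1.75 and 1.81 times expected, against 0.330 and 0.289 times, log2 2.54), and next in the bin holding S4 (log2 2.37). Both CTCF sites fell below the promoter in the bin starting at 138980001, at 0.178 and 0.163 times expected from S4 and 0.191 and 0.221 times from S2, against 2.26 and 2.11 times from the promoter. The values of that bin from the promoter, 887 and 1363 reads, enter both contrasts.

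Covered ends, which repeated copies of 1 end do not raise, gave far fewer calls. In this count, 21 of 82 bins differed with the distance term for S4 over S2 (25.6%), 4 for S4 over promoter (4.88%) and 0 for S2 over promoter, where 9 had an unadjusted p under 0.05 (edgeR). Of the 11 bins higher from S4, 9 lay between 139290001 and 139420000, around S2 and to its centromeric side, with log2 differences of 0.65 to 1.20. Of the 10 bins higher from S2, 9 lay between 139500001 and 139630000, around S4 and to its telomeric side, with log2 differences of -1.22 to -0.63. The raw counts of covered ends in these bins were close, however: the bin starting at 139350001 had 42 and 42 from S4, against 43 and 44 from S2, and the bin starting at 139500001 had 34 and 35 from S4, against 36 and 37 from S2. The called differences are relative to the distance offset, in bins where the number of covered ends is near its ceiling, and they give no separate support to the differences in reads. Without the distance term, covered ends gave 1 call of 90 for S4 over promoter, 2 for S2 over promoter and 0 for S4 over S2, with 16, 16 and 2 at an unadjusted p under 0.05.

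Domain edges were read from each profile as the grid line with the steepest drop, over 50 kb on either side, beyond the drop by distance, among lines 60 to 450 kb from the own viewpoint. A drop at a viewpoint itself can therefore be read at most from the other viewpoints. S2 and the promoter lie 57.4 kb apart, so from either one, only lines past the other were scored on that side. On the telomeric side S4 and S2 shared 1 line, 139630000 (hg19), 106 kb from S4 and 244 kb from S2. Mean shares per bin fell 2.98-fold across it from S4 (edge score 0.74, the log2 drop beyond that by distance) and 3.59-fold from S2 (score 1.50). The highest line from the promoter was 139670000, 227 kb away, with a 2.23-fold drop (score 0.79), and 139630000 had rank 3 of 39 lines there (score 0.60). Every library gave the line of its viewpoint when taken alone.

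No shared line was found on the centromeric side. As planned, the rule gave 139210000 from all viewpoints, but this is the border of 4 bins (139170001 to 139210000) in which no fragment end is listed in any table. With bins of under 10 listed ends left out, a setting chosen after seeing the data, the highest lines were 139230000 from S4 (score 0.86), 139000000 from S2 (1.09) and 139090000 from the promoter (0.63). The S4 line had rank 3 of 37 from S2 (score 0.86) and rank 12 of 39 from the promoter (score 0.22). Positions moved with the width of the window and the type of end, so an edge is given here only as the line under 1 setting.

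**Figure D5:**
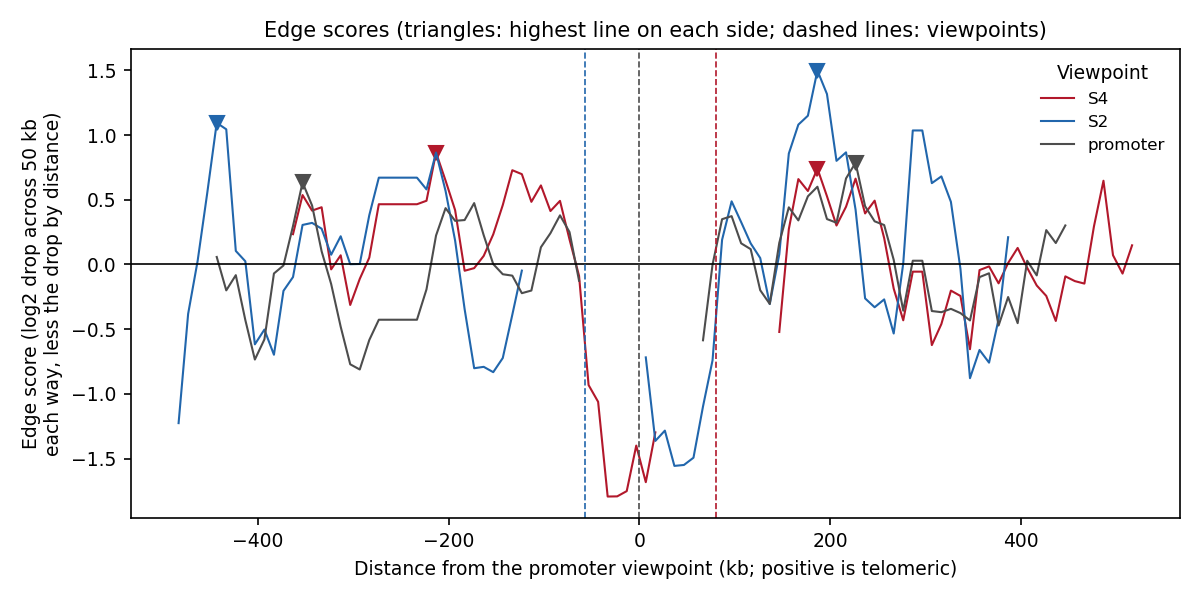
Edge score (y, log2 drop across 50 kb each way less the drop by distance) against distance from the promoter viewpoint in kb (x, positive is telomeric), with bins of under 10 listed ends left out, for S4, S2 and the promoter. Triangles mark the highest line on each side, which coincide for S4 and S2 on the telomeric side and differ on the centromeric side, and scores are flat where bins were left out.

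Which profiles were most alike in shape depended on the range. Across 85 bins of the shared window over 50 kb from all viewpoints, log2 shares correlated at 0.83 for S4 and S2, 0.70 for S4 and the promoter, and 0.66 for S2 and the promoter (Pearson r across bins). Across 1-Mb windows over 1 Mb away, S4 and S2 were the least alike, at 0.62 over 95 windows, against 0.73 for S4 and the promoter and 0.67 for S2 and the promoter over 97 windows each. The bins share their listed ends, their base composition and a common decay with distance, and they are not independent, so these values are descriptions.

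Over 1 Mb away the 3 viewpoints are at nearly the same distance from any window, and their profiles were sparse. Reads from 500 kb to 1 Mb away made up 6.40 ± 0.00726% of chromosome 9 reads outside the mask from S4 and 6.26 ± 0.0528% from S2, against 7.75 ± 0.00771% from the promoter (SD, n = 2 each). From 1 to 10 Mb on the centromeric side the shares were 10.7% from S4 and 11.0% from S2, against 13.2% from the promoter. Beyond 10 Mb they were 8.18% from S4 and 11.1% from S2, against 10.5% from the promoter. Despite the fewest reads, the promoter libraries covered the most far ends, 2524 and 2674, against 1959 and 2001 from S4 and 1932 and 2002 from S2. Reads per covered far end averaged 106 and 146 from S4 and 86.3 and 109 from S2, against 31.4 and 49.1 from the promoter.

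Tests on 1-Mb windows called 85 of 99 for S4 over promoter (85.9%, 28 higher and 57 lower), 85 for S2 over promoter (85.9%, 40 higher and 45 lower) and 89 for S4 over S2 (89.9%, 32 higher and 57 lower). The windows with the largest differences rested on a handful of ends. The window from 82 to 83 Mb held 416 and 703 reads from S4 on 4 ends, and 0 reads from S2. The window from 2 to 3 Mb held 0 reads from S4, against 388 and 619 reads on 13 and 12 ends from the promoter. Paired libraries had their reads on nearly equal numbers of ends in each such window. In covered ends, 18 of 42 windows were called for S4 over promoter (42.9%) and 13 for S2 over promoter (31.0%), each of them lower than from the promoter, and 1 for S4 over S2 (2.38%), also lower.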

How the data were processed

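For every library the authors deposited 1 table of chromosome 9 fragment ends with whole read counts per end, per the file headers, and only these counts were used. The submitters' processing notes name hg19 and deepTools, while aligner, filters and second enzyme per viewpoint (NlaIII or CviQI) are not given in the sources used. The tables differ in listed ends: 428705 for S4, 429740 for S2 and 382657 for the promoter. Reads carry no molecular identifiers, so reads at 1 end are not independent ligation events.

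Viewpoints were placed at the centre of the most covered 5-kb window, ends within 5 kb were masked, and the rest were summed on a fixed 10-kb grid. A bin needed a mean of 10 reads over the 6 libraries. All 6 libraries entered 1 edgeR 4.0.16 quasi-likelihood fit (R 4.3.3), with chromosome 9 totals as library sizes. For the distance-corrected bins, an offset came from 1 power law over bins 15 to 500 kb away. Tests were two-sided and Benjamini-Hochberg adjusted. On simulated counts for S4 over promoter, the test on 2236 bins recovered 70.4% of 2-fold and 95.7% of 4-fold changes. DESeq2 1.42.0 was an alternative. Single values per library were compared by exact permutation, and figures and summaries used Python 3.11.15. The bins named are those that hold other viewpoints, the 3 highest by share outside 50 kb, the 3 highest and 3 lowest relative to distance, the edges, and the 3 most different called bins or windows in each direction, of which the report gives part. The libraries, measures and rules were chosen with earlier results of these data known. No hg19 annotation or genome was used, so bins carry no gene names.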

Additional observations from a re-analysis of the deposited data

How the results depend on the processing

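Of 510 values recomputed under other settings, 419 were kept, 79 changed in size or position and 12 reversed. For differences between viewpoints, kept refers to direction only, and their size could change. The share between S2 and S4 kept its order with covered ends, at 16.4% from S4 against 20.1% from the promoter. In reads those shares were 35.4% and 57.6%. For none of the 510 values was the cause of a change tested, except where the setting itself changes what is counted. The settings, beside those named here, were TMM factors, DESeq2, library sizes from the shared window, filters of 30 reads or none, and each viewpoint's own power law. Bins of 5 kb gave 184 distance-corrected calls for S4 over promoter, 184 for S2 over promoter and 189 for S4 over S2, and bins of 20 kb gave 50, 49 and 52. Windows of 500 kb gave 168, 172 and 167 calls, and those of 2 Mb gave 47, 48 and 46, since the number tested changes with the size. Non-blind ends gave 1144 bins for S4 over S2, against 1743. Covered ends gave 1, 2 and 0 bins in the order S4 over promoter, S2 over promoter and S4 over S2, 4, 0 and 21 distance-corrected bins, and 18, 13 and 1 windows. Covered ends also reversed the S4 minus S2 difference in near-cis share, to -0.513 points, and the S2 minus promoter difference in slope, to 0.0876. A 250-kb near-cis window reversed the slope differences of S2 minus promoter, to 0.529, and of S4 minus S2, to -0.149.

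The log2 ratio of S4 to S2 over S2 to S4 was 0.245 with non-blind ends, 0.246 with a 5-kb and 0.0520 with a 20-kb contact window, and 0.108 with ends listed for all viewpoints, a setting chosen after seeing the data. As observed over expected it was 0.242, 0.243, 0.0489 and 0.106 in the same settings. It was -0.296 with a 20-kb mask, -0.735 with covered ends, -0.285 with capped ends and -0.206 with a 250-kb near-cis window. For S4 and the promoter the ratio was -0.394 with the 20-kb mask, -0.833 with covered ends, -0.359 with capped ends, -0.208 with a 1-Mb near-cis window, -0.148 and -0.419 with 5-kb and 20-kb contact windows, and -0.204 with ends listed for all viewpoints. For S2 and the promoter it was -0.914 with the 20-kb mask, -1.13 with non-blind ends, -0.384 with covered ends, -0.773 with capped ends, -0.825 and -0.773 with near-cis windows of 250 kb and 1 Mb, and -0.886 and -0.442 with the narrow and wide contact windows.

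The telomeric edge of S4 was 139610000 with 3 bins either side, with no distance correction or with non-blind ends, 139660000 with 10 bins and 139700000 with covered ends. That of S2 was 139540000 with 3 bins, 139610000 with 10, 139640000 with covered and 139620000 with non-blind ends. That of the promoter was 139530000 with no distance correction and 139700000 with covered ends. Centromeric edges of S4 were 139230000 with 3 or 10 bins or with sparsely listed bins left out and 139220000 with covered ends, those of S2 were 139000000 with 3 bins or with sparse bins left out and 139220000 with covered ends, and those of the promoter were 139220000 with 3 bins or covered ends, 139240000 with 10 bins and 139090000 with sparse bins left out.

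With the replicate number as a block (replicate block), the counts were 1747, 1731 and 1722 bins, 91, 96 and 94 distance-corrected bins, and 85, 86 and 89 windows, and no call of the summary values changed. Deviations of same-numbered libraries correlated at -0.09 for S4 and promoter, -0.05 for S2 and promoter and -0.12 for S4 and S2 over 99 bins, and 2 numbers cannot show a pairing. Leaving out 1 library at a time gave 1493 to 1818, 1494 to 1821 and 1644 to 1763 bins, 88 to 94, 93 to 98 and 91 to 98 distance-corrected bins, and 78 to 84, 79 to 88 and 85 to 93 windows. Few far ends were covered, which limits what can be said of any window over 1 Mb away.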
